A study of Mus musculus with 6 samples.

Results

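Imprinted genes, transcribed mainly from the copy inherited from the mother or mainly from the copy inherited from the father, were examined in whole mouse embryos that lack the reduced folate carrier RFC1, 45 genes in all. The genes were taken by symbol from the classical imprinted clusters. Of the 45, 40 were measured by at least 1 probe set (a group of array probes for 1 transcript) annotated to that symbol alone, among 18194 genes measured in this way. They had 102 probe sets of the 45101 on the array. No probe set with 1 symbol was found for H19, Rtl1, Dio3, Zrsr1 and Slc22a3, and these 5 genes are not analysed here. Further probe sets that carry Snrpn, Igf2r or H19 together with an overlapping transcript were left out.

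Both groups consisted of 3 embryos at embryonic day 9.5, with 1 RFC1-/- and 1 RFC1+/+ embryo from each of 3 litters and 1 embryo per array. All embryos carried the inbred SWV background, onto which the targeted RFC1 allele had been moved from a C57BL/6J hybrid stock, and all developed in RFC1+/- dams that received 25 mg/kg folic acid daily by subcutaneous injection. The RFC1-/- embryos lacked the carrier in every tissue and were labelled as affected, while their RFC1+/+ littermates were labelled normal. For RFC1-/- embryos at this low dose, the paper lists craniorachischisis and defective chorioallantoic fusion. Folic acid treatment was thus common to both groups, and no embryo from an untreated dam was on the arrays. Genotypes are those of the labels. The gene for the carrier, Slc19a1, read log2 levels of 9.11, 9.10 and 8.89 in the RFC1+/+ and of 9.97, 10.10 and 9.84 in the RFC1-/- group on its brightest probe set (litters 1, 2 and 3 in this order, as for all values given per array). This signal was higher, not lower, in RFC1-/- embryos, and since the sources used here do not say which part of the gene was removed, it does not check the genotype.

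Imprinting often rests on methylation marks that are set in the germ line and copied at each cell division by the DNA methyltransferase Dnmt1. Folate supplies methyl groups, through methionine and S-adenosylmethionine, for this and other methylation reactions. Many imprinted genes act on growth: as a rule of thumb, genes expressed from the father's copy promote growth of the embryo and its placenta, and genes expressed from the mother's copy restrain it. In a cluster, a control region methylated on 1 parental copy often governs several neighbours at a time, in many cases through a long noncoding RNA. The arrays measured the total RNA of each gene, so that neither the parental copy from which it came nor any methylation was observed.

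The sequences of 4 windows upstream of transcription start sites are given for orientation, with every CpG, the letters CG, in capitals because CpG is the site at which DNA is methylated in mammals. The windows are 250 bases long, come from RefSeq with the mouse build GRCm38.p6, and show the reference genome and not the sequence of these embryos. Phlda2 and Magel2 are shown because they were the members that differed between the groups, Ndn because it is the nearest listed neighbour of Magel2 and is expressed from the same copy, and Meg3 because most of the member probe sets that differed belong to it. Phlda2 lies at chr7:143502525-143502774 on the minus strand, Magel2 at chr7:62376729-62376978 on the plus strand, Ndn at chr7:62348027-62348276 on the plus strand, and Meg3 at chr12:109540746-109540995 on the plus strand.
Phlda2: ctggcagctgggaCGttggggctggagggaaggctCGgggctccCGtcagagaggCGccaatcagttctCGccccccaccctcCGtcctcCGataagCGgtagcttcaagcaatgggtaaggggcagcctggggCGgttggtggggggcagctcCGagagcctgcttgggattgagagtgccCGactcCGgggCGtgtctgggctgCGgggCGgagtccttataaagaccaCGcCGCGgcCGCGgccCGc
Magel2: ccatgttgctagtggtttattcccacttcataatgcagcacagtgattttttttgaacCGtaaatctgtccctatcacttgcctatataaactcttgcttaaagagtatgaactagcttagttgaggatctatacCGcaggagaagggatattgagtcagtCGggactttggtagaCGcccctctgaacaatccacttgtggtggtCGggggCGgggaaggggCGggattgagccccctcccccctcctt
Ndn: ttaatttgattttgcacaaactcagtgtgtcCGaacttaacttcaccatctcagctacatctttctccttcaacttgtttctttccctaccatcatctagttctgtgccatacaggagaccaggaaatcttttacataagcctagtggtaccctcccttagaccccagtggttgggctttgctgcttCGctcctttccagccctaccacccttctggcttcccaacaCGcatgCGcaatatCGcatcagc
Meg3: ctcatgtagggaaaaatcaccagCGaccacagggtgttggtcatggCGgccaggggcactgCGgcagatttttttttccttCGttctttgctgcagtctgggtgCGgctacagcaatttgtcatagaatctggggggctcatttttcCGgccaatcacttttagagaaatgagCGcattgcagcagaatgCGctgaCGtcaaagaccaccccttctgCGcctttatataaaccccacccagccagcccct

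The Phlda2 window held 21 CpG, a number reached by 16.3% of the 32851 windows of all genes. The Magel2 window held 7 CpG, reached by 46.3% of all windows, and the Ndn window 5, reached by 55.6%. The Meg3 window held 10 CpG, while another Meg3 start site had a window with 0. CG reads the same on both strands, so each CpG was counted once. Windows were found for 38 of the 45 members, 58 windows in all, some of which overlap, and they held between 0 and 40 CpG with a median of 10, against a median of 6 over all windows. At least 10 CpG were present in 53.4% of member windows and in 37.8% of all windows. These counts describe the letters and carry no measurement of methylation. They do not show where an imprint is set.

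The 2 members Phlda2 and Magel2 were higher in RFC1-/- embryos at an adjusted p under 0.05 from limma, in which litter was a block, and no member was lower. Of all genes, 5.32% passed this test, 3.67% higher and 1.65% lower, so the members' share of 5% was near the background. The members as a list nevertheless lay mostly above 0: the mean of the 3 littermate differences was positive in 29 of 40 members (72.5%), against 46.0% of all genes, with a median log2 difference of 0.13 against -0.01. An unadjusted p under 0.05 was reached by 13 members (32.5%), of which 12 were higher and 1 lower, against 18.4% of all genes. In each litter taken alone, 23, 28 and 28 of the 40 members were higher in the RFC1-/- embryo, with median differences of 0.03, 0.14 and 0.26 in litters 1, 2 and 3. The matching share of all genes was not computed for single litters. The 3 RFC1-/- arrays lay above all 3 RFC1+/+ arrays for 12 of the 40 members (30%), an arrangement found for 12.8% of all genes. They lay below them for 2 of the 40 members, found for 13.4% of all genes. The difference was positive in all 3 litters for 16 of the 40 members and negative in all 3 for 4 of the 40, against 18.4% and 20.6% of all genes. These are counts over a list of genes and were not tested as a list.

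**Figure D1:**
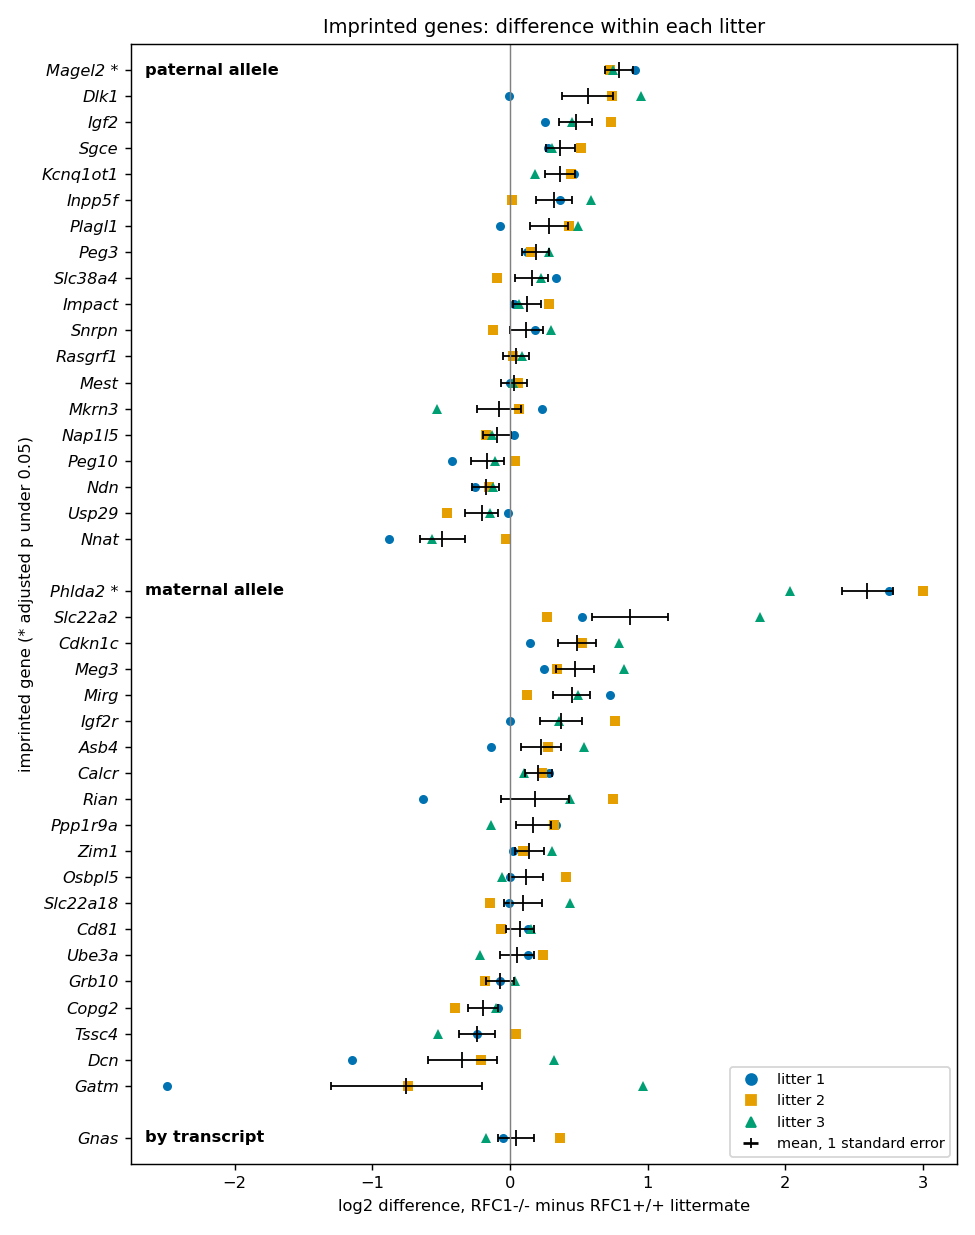
Difference on the log2 scale (x axis) between the RFC1-/- embryo and its RFC1+/+ littermate for each measured imprinted gene, grouped by the parental copy that is expressed, with 1 symbol per litter and a bar of 1 standard error around the mean. An asterisk marks an adjusted p under 0.05, reached by Phlda2 and Magel2; the Gatm litters lie farthest apart, from -2.49 to 0.97.

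**Figure D2:**
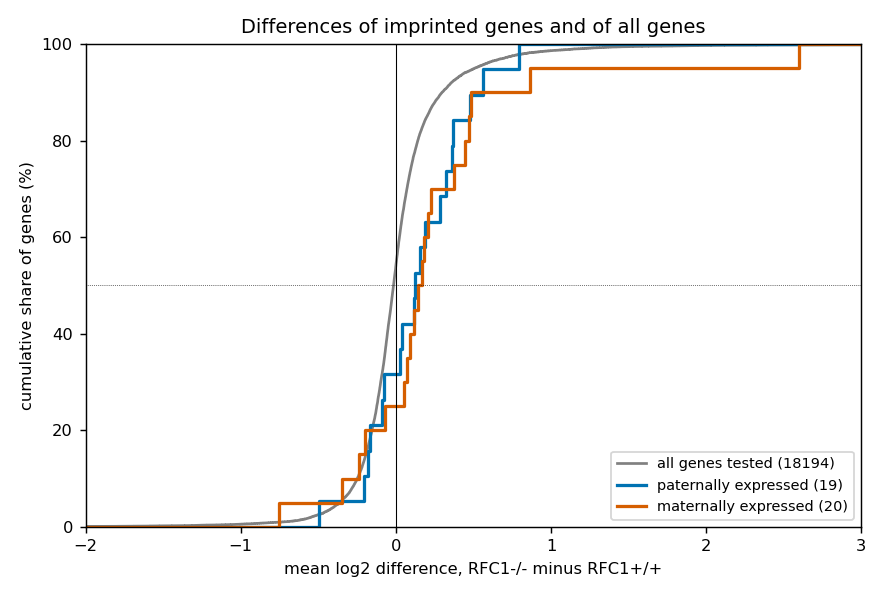
Cumulative share of genes (y axis, percent) at or below a given mean log2 difference (x axis) for paternally expressed members, maternally expressed members and all 18194 genes. Both member curves run to the right of the curve of all genes over most of the range, with medians of 0.12, 0.15 and -0.01.

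Averaged over the 3 litters, most members lay above 0 whichever parental copy is expressed. Of the 19 paternally expressed members measured, 1 rose (Magel2), 13 had a mean difference above 0, and the median log2 difference was 0.12. Of the 20 maternally expressed members, 1 rose (Phlda2), 15 had a mean difference above 0, and the median was 0.15. In litters 1, 2 and 3 taken alone, 10, 14 and 15 of these 20 were above 0, with medians of 0.01, 0.24 and 0.34. Of the 19 paternally expressed members, 13 were above 0 in each litter. Gnas, a locus with maternal, paternal and biallelic transcripts, was counted in neither. By tissue, the 28 members imprinted broadly had a median of 0.17 and held both genes that rose, the 7 imprinted mainly in the placenta a median of 0.07, and the 4 imprinted mainly in the brain a median of 0.13. Between these classes no test was made, since genes of a cluster are not replicates.

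RNA of cell type markers differed between the groups in the same fit. All 12 visceral endoderm markers, several of which the study itself picked from these arrays, were higher in RFC1-/- embryos, with a summed linear signal of 1858 to 5852 in RFC1+/+ and 22201 to 59669 in RFC1-/- embryos. Markers of parietal endoderm (3 of 5), allantois (2 of 3), cardiomyocytes (4 of 5) and endothelium (3 of 5) were higher as well, and those of primitive erythroid cells (7 of 8), neural progenitors (7 of 8), neurons (4 of 8), somite and muscle (4 of 6) and mesenchyme (2 of 8) were lower. In RNA from whole embryos, fewer cells of a type and less RNA per cell cannot be told apart. The paper also describes RFC1-/- embryos at mid-gestation as delayed in development. The part of embryo stage in the marker values and in those of imprinted genes was not tested. The neural, somite and heart markers of an embryo were above the dim limit, 5.47 on the log2 scale, on at least 1 array. The methods describe removal of the decidual capsule with its chorion and amnion, and collection of the extraembryonic membranes for genotyping. Yet the RFC1+/+ array of litter 1 stood apart for Prl8a2, a prolactin-family gene of the decidua. It read 11.17 against 4.49 to 7.84 on the other 5 arrays. The part of these differences in the values of imprinted genes was not tested. Fits without each litter do not test it, since all 12 visceral endoderm markers were higher and all 8 neural progenitor markers lower in every litter.

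The Kcnq1ot1 cluster held the member with the largest change. Phlda2, a maternally expressed PH-domain protein that restrains growth of the placenta, gave 7.82, 7.53 and 9.20 in RFC1+/+ and 10.57, 10.53 and 11.24 in RFC1-/- embryos. The groups did not overlap, and the RFC1+/+ embryo of litter 3 was the highest of its group. Phlda2 rose 6.05-fold (log2 difference 2.60, standard error 0.18, adjusted p = 0.00342). It passed in every one of the 11 alternative analyses, with an adjusted p of at most 0.0140. The variation filter among them keeps probe sets that differ between arrays, so the pass after it adds no support of its own. Phlda2 is known to be abundant in extraembryonic tissue, including trophoblast and yolk sac. By the methods, extraembryonic membranes were taken for genotyping and the RNA came from the embryo. Besides the visceral endoderm markers, 1 of 6 trophoblast markers measured was higher in RFC1-/- embryos, Plac1, the summed signal of the list was 351 to 486 in RFC1+/+ and 727 to 1455 in RFC1-/- embryos, and Elf5, Rhox9 and Tpbpa lay under the dim limit on all arrays. Whether these tissues had a part in the Phlda2 value was not tested.

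The neighbours of Phlda2 differed less from group to group. Cdkn1c, the maternally expressed cyclin-dependent kinase inhibitor p57, gave 11.37, 11.10 and 11.11 in RFC1+/+ and 11.52, 11.62 and 11.90 in RFC1-/- embryos, without overlap, and the log2 difference of 0.49 did not pass (adjusted p = 0.111). Kcnq1ot1, the paternally expressed noncoding RNA that silences the cluster on the paternal copy, gave 7.57, 7.39 and 8.02 in RFC1+/+ and 8.04, 7.83 and 8.20 in RFC1-/- embryos, a difference of 0.36 (adjusted p = 0.119). Its groups overlapped, since the RFC1+/+ embryo of litter 3 lay above the RFC1-/- embryo of litter 2. Of its 6 probe sets, 1 rose by 0.61 in the fit of all probe sets (adjusted p = 0.0488), with 7.10, 7.16 and 7.00 in RFC1+/+ and 7.67, 7.56 and 7.86 in RFC1-/- embryos. The 6 Kcnq1ot1 probe sets ranged from -0.32 to 0.61, and 0 passed when any litter was left out, although the probe set that rose still differed by 0.48 to 0.71. It also did not pass with an intensity trend, in the random-variance test or after another quantile normalization.

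Slc22a18, a maternally expressed membrane transporter, gave 6.78, 6.92 and 6.49 in RFC1+/+ and 6.77, 6.77 and 6.93 in RFC1-/- embryos, a difference of 0.09 (adjusted p = 0.815). Its other probe set, which was dim, gave 5.28, 5.11 and 5.24 against 5.56, 5.43 and 5.95, without overlap. That difference of 0.44 did not pass in the fit of all probe sets (adjusted p = 0.128). Tssc4, an outer gene of the cluster imprinted mainly in the placenta, gave 9.40, 9.57 and 9.53 against 9.16, 9.61 and 9.01, a difference of -0.24 (adjusted p = 0.411). These groups overlapped. Cd81, a tetraspanin of the cell surface, gave 10.89, 11.05 and 10.84 in RFC1+/+ and 11.03, 10.98 and 10.99 in RFC1-/- embryos, a difference of 0.07 (adjusted p = 0.818). Osbpl5, a lipid-transfer protein, gave 6.01, 5.88 and 5.93 against 6.01, 6.29 and 5.87, a difference of 0.12 (adjusted p = 0.729). None of the outer genes Tssc4, Cd81 and Osbpl5 separated the groups, and 1 of the 7 measured members of the cluster rose.

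**Figure D3:**
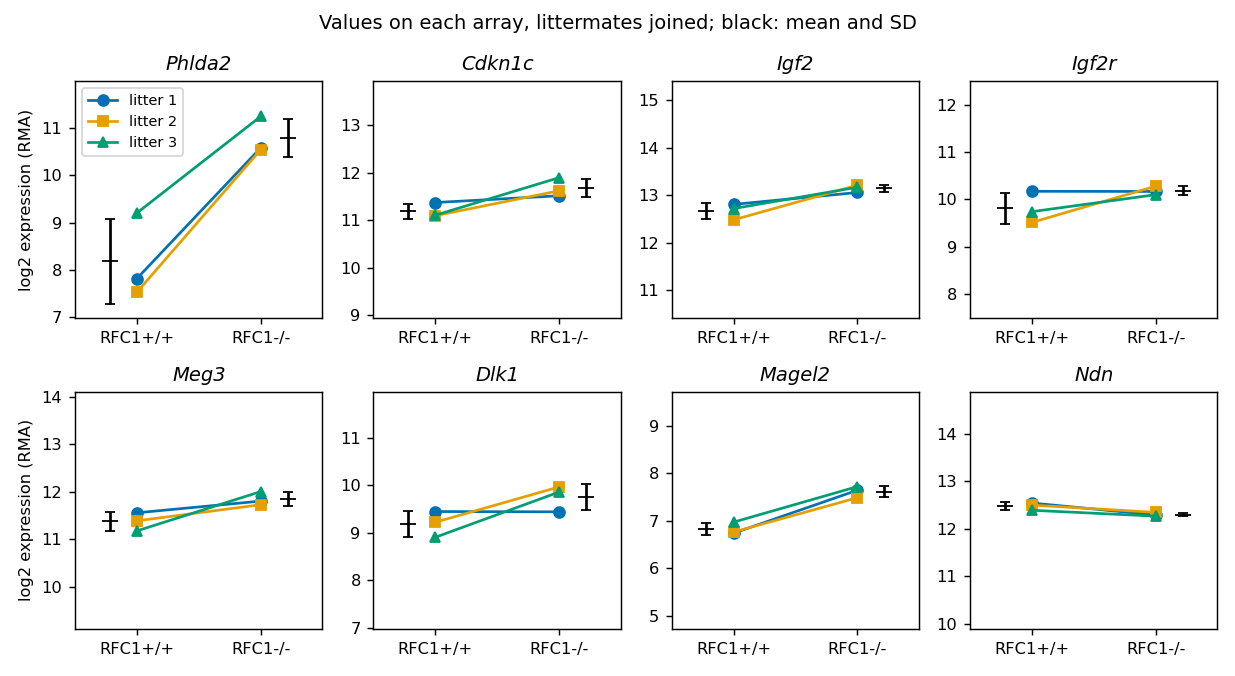
Log2 expression (y axis, each panel spanning the same range of log2 units) of 8 imprinted genes in RFC1+/+ and RFC1-/- embryos, with littermates joined by a line and black bars for the mean and SD of 3 embryos. Phlda2 shows the steepest lines, from 7.53 to 9.20 in RFC1+/+ up to 10.53 to 11.24 in RFC1-/- embryos, the Magel2 groups are also apart, and the lines of Ndn slope slightly downwards.

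In the neighbouring H19-Igf2 locus, Igf2 was measured. Igf2, the paternally expressed insulin-like growth factor and a main driver of fetal growth, gave 12.81, 12.48 and 12.72 in RFC1+/+ and 13.06, 13.21 and 13.17 in RFC1-/- embryos. The groups did not overlap and each RFC1-/- embryo was above its littermate. The difference of 0.48 (standard error 0.12) did not pass in the fit with the litter block (adjusted p = 0.0790). It passed without the block (adjusted p = 0.0382) and with an intensity trend in the variance (adjusted p = 0.0174), and the second Igf2 probe set differed by 0.31 (adjusted p = 0.637), with -0.12, 1.10 and -0.05 in litters 1, 2 and 3, so that litter 2 alone was above 0. Over all alternatives the adjusted p of Igf2 lay between 0.0174 and 0.495. Igf2r, the maternally expressed receptor that clears Igf2, differed by 0.37 (adjusted p = 0.260), and in litter 1 the RFC1-/- embryo and its littermate were at 10.17 each. Slc22a2, an organic cation transporter beside Igf2r that is imprinted in the placenta, was dim (mean level under 5.47, the median of all probe sets) and differed by 0.87 (adjusted p = 0.143), with 1.81 in litter 3 and 0.52 and 0.27 in litters 1 and 2.

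In the Snrpn-Ube3a cluster, the region whose human counterpart is linked to Prader-Willi and Angelman syndromes, 1 of 5 measured members rose. Magel2, a paternally expressed MAGE-family protein that binds ubiquitin ligases, gave 6.74, 6.76 and 6.97 in RFC1+/+ and 7.64, 7.48 and 7.72 in RFC1-/- embryos. The groups did not overlap, and the litter differences were 0.90, 0.72 and 0.75. Magel2 rose 1.73-fold (log2 difference 0.79, standard error 0.10, adjusted p = 0.0107). Without litter 1, where 1.95% of all genes passed, the difference was 0.74 and did not pass (adjusted p = 0.0636), while it passed in the other 9 of the 10 alternatives in which its probe set was tested. Its only probe set was not among those left by the variation filter of the methods.

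Ndn, another paternally expressed MAGE-family gene, gave 12.54, 12.50 and 12.39 in RFC1+/+ and 12.29, 12.35 and 12.27 in RFC1-/- embryos, a difference of -0.18 (adjusted p = 0.421). Its RFC1-/- arrays were all lower, opposite in sign to Magel2, and its 8 probe sets ranged from -0.28 to 0.03 with 0 passing. Snrpn, a splicing protein of the same paternal domain, gave 5.55, 5.70 and 5.47 against 5.73, 5.58 and 5.77, a difference of 0.12 (adjusted p = 0.701), on the 1 probe set that carries its symbol alone. Mkrn3, a paternally expressed makorin ubiquitin ligase, gave 6.58, 6.62 and 7.24 against 6.81, 6.68 and 6.71, a difference of -0.08 (adjusted p = 0.876), and was higher in RFC1-/- embryos in litters 1 and 2 and lower in litter 3. Ube3a, the ubiquitin ligase expressed from the maternal copy in neurons, gave 10.99, 10.96 and 11.45 against 11.12, 11.20 and 11.23, a difference of 0.05 (adjusted p = 0.899). The 6 Ube3a probe sets ranged from -0.33 to 0.31, and 0 passed. On the probe sets used in the fit of genes, the groups overlapped in this cluster apart from Magel2 and Ndn.

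In the Dlk1-Dio3 cluster, 4 members were measured and all 4 had a mean difference above 0. Meg3, a maternally expressed long noncoding RNA that starts the maternal transcription unit of the cluster, gave 11.56, 11.39 and 11.18 in RFC1+/+ and 11.81, 11.73 and 12.00 in RFC1-/- embryos on its brightest probe set, without overlap. The difference of 0.47 on that probe set did not pass (adjusted p = 0.114). Meg3 had 11 probe sets, and their mean differences were all above 0, from 0.06 to 0.92. In the fit of all probe sets 5 of the 11 rose, by 0.62 to 0.92. On the brightest of these 5, Meg3 gave 10.20, 10.03 and 10.21 in RFC1+/+ and 10.91, 10.87 and 10.97 in RFC1-/- embryos (log2 difference 0.77, adjusted p = 0.0131). Averaged over its probe sets, Meg3 differed by 0.61 (adjusted p = 0.0155). The count of 5 was 0 without litter 1, 2 without litter 2 and 5 without litter 3, while the differences of these 5 probe sets were 0.49 to 0.89, 0.64 to 1.04 and 0.73 to 0.90. Over all probe sets, 2.75% passed with all litters and 0.286%, 1.86% and 3.51% without litters 1, 2 and 3. Probe sets of 1 gene share its RNA and are not replicates.

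Rian, the host RNA of a large group of small nucleolar RNAs downstream of Meg3, differed by 0.18 on its brightest probe set (adjusted p = 0.799), with -0.63 in litter 1 and 0.75 and 0.43 in litters 2 and 3. Its 4 probe sets had means of 0.18 to 0.50, and 0 passed. Mirg, the maternally expressed host RNA of microRNAs at the far end of the cluster, differed by 0.45 (adjusted p = 0.126), with each RFC1-/- embryo above its littermate. Dlk1, the paternally expressed transmembrane protein of the Notch ligand type that regulates adipocyte formation, differed by 0.56 (adjusted p = 0.154). Its embryos of litter 1 were alike, at 9.45 and 9.44, and without litter 1 the difference was 0.85 and passed (adjusted p = 0.0431). Both the maternally expressed RNAs and the paternally expressed Dlk1 had positive means.

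**Figure D4:**
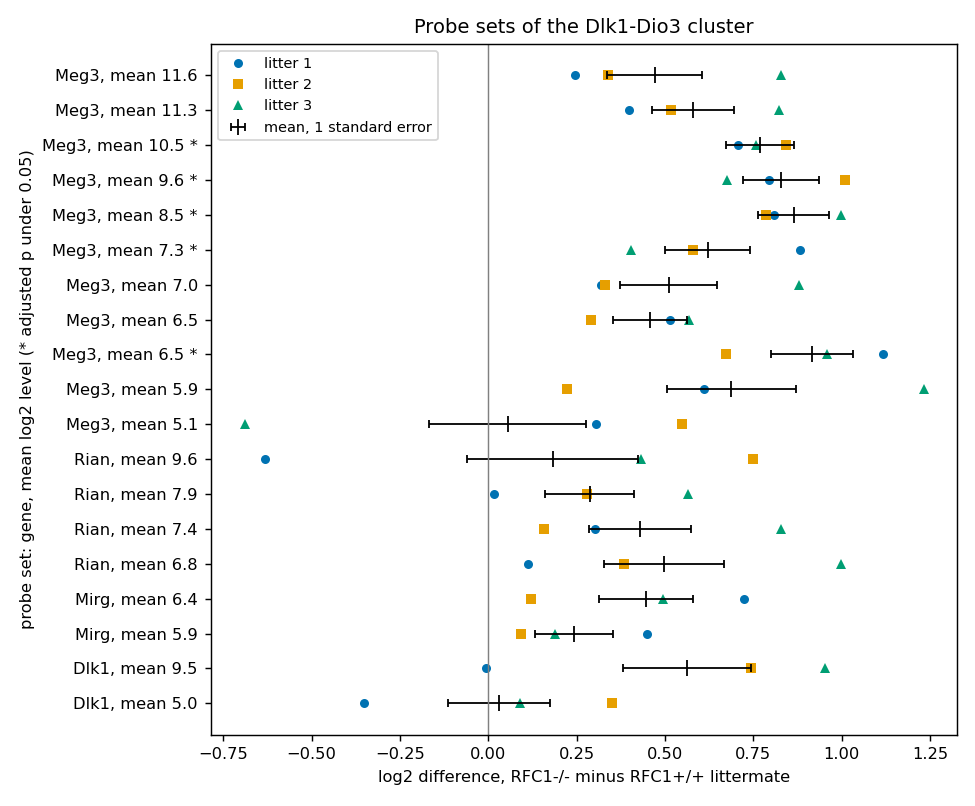
Difference on the log2 scale (x axis) between the RFC1-/- embryo and its RFC1+/+ littermate for each probe set of Meg3, Rian, Mirg and Dlk1 (y axis, with its mean log2 level), with 1 symbol per litter and a bar of 1 standard error around the mean. Asterisks mark an adjusted p under 0.05 over all probe sets, reached by 5 of 11 Meg3 probe sets and by none of the other 3 genes.

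Over all members, 8 of 102 probe sets rose (7.84%) and 0 fell, against 2.75% of all probe sets in either direction and 1.87% higher. They were the 5 of Meg3 and 1 each of Phlda2, Magel2 and Kcnq1ot1. A count of probe sets weights a gene by how often the array holds it, and Meg3 alone had 11 of the 102.

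In the Peg10-Sgce cluster 5 members were measured and 0 passed. Sgce, the paternally expressed sarcoglycan epsilon, differed by 0.37 (adjusted p = 0.107) with non-overlapping groups, 9.76, 9.42 and 9.81 in RFC1+/+ and 10.04, 9.94 and 10.12 in RFC1-/- embryos. The other Sgce probe set differed by -0.02. Peg10, a paternally expressed gene derived from a retrotransposon and needed in the placenta, was dim and differed by -0.16 (adjusted p = 0.573). Among the maternally expressed members, Ppp1r9a, an actin-binding scaffold, differed by 0.17 (adjusted p = 0.588), Asb4, an ankyrin repeat protein of ubiquitin ligase complexes, by 0.23 (adjusted p = 0.498), and Calcr, the calcitonin receptor, by 0.21 (adjusted p = 0.349, dim). The 5 Ppp1r9a probe sets ranged from -0.25 to 0.42, and 0 passed. In the Peg3 cluster, Peg3, a paternally expressed zinc finger protein, differed by 0.19 (adjusted p = 0.397), Usp29, a deubiquitinase, by -0.21 (adjusted p = 0.446) and Zim1, a maternally expressed zinc finger gene, by 0.14 (adjusted p = 0.592). Usp29 and Zim1 were dim. The 5 Peg3 probe sets ranged from 0.04 to 0.33, and 0 passed.

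Mest, Grb10 and Gnas had differences close to 0 on their brightest probe sets. Mest, a paternally expressed gene of the mesoderm with a hydrolase fold, gave 12.84, 12.84 and 12.88 in RFC1+/+ and 12.84, 12.90 and 12.90 in RFC1-/- embryos, a difference of 0.03 (adjusted p = 0.944). Grb10, a maternally expressed adaptor that dampens insulin receptor signalling, gave 13.15, 13.16 and 13.06 against 13.08, 12.98 and 13.10, a difference of -0.07 (adjusted p = 0.812). On these probe sets the littermates of both genes were within 0.18 of each other in every litter. The other Grb10 probe sets differed by -0.36, with -0.71 in litter 1, and by 0.25, with 0.76 in litter 2, and did not pass. The 5 Gnas probe sets ranged from -0.27 to 0.09. Copg2, a coatomer subunit that overlaps Mest, differed by -0.20 (adjusted p = 0.429), and Gnas, the stimulatory G protein locus, by 0.04 (adjusted p = 0.925). Plagl1, a paternally expressed zinc finger regulator of other imprinted genes, differed by 0.28 (adjusted p = 0.340).

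Of the remaining loci, none passed. Inpp5f, a phosphoinositide phosphatase with a paternally expressed brain transcript, differed by 0.32 (adjusted p = 0.256), Slc38a4, an amino acid transporter of the placenta, by 0.16 (adjusted p = 0.588), and Impact, a regulator of translation, by 0.12 (adjusted p = 0.642). The other Slc38a4 probe set differed by 0.27 without overlap and did not pass in the fit of all probe sets (adjusted p = 0.226). Nap1l5, a nucleosome assembly protein-like gene, differed by -0.09 (adjusted p = 0.738), and Rasgrf1, a Ras exchange factor of neurons, was dim and differed by 0.04 (adjusted p = 0.893). Nnat, the paternally expressed neuronatin of the developing nervous system, was the only member with an unadjusted p under 0.05 in the lower direction, with 7.77, 7.32 and 7.23 in RFC1+/+ and 6.89, 7.29 and 6.66 in RFC1-/- embryos. Its difference was -0.49 (adjusted p = 0.164), and without litter 2, in which the littermates were alike, it was -0.72 and passed (adjusted p = 0.0446). Neural progenitor markers fell at the same time, from a summed signal of 6959 to 7665 in RFC1+/+ to 2556 to 4589 in RFC1-/- embryos, and their part in the Nnat value was not tested.

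Gatm and Dcn are both expressed from the maternal copy in the placenta, and Gatm had the largest standard error of all measured members, 0.55. Gatm, an enzyme of creatine synthesis, gave 7.96, 6.21 and 6.10 in RFC1+/+ and 5.47, 5.47 and 7.06 in RFC1-/- embryos. The litter differences of -2.49, -0.74 and 0.97 had opposite signs, and the mean of -0.76 did not pass (adjusted p = 0.569). Without litter 1 the difference was 0.11, and without litter 3 it was -1.62 (adjusted p = 0.0336). Dcn, the matrix proteoglycan decorin, gave 7.67, 7.44 and 7.10 in RFC1+/+ and 6.52, 7.22 and 7.42 in RFC1-/- embryos, a difference of -0.35 (adjusted p = 0.565) and of 0.05 without litter 1. For both genes the RFC1+/+ embryo of litter 1 was the highest of the 6 arrays. The same array had the highest level of Prl8a2, 11.17 against 5.68 and 6.66 in the other RFC1+/+ embryos and 5.30, 4.49 and 7.84 in RFC1-/- embryos. The summed signal of the 4 decidual markers, 2405 on this array against 128 to 459 on the others, was largely that of Prl8a2. Igfbp1 and Pgr were not highest on this array, at 5.61 and 5.29 against up to 7.22 and 6.14 in RFC1-/- embryos. Of these 4 markers 1 passed, Igfbp1, which was higher in RFC1-/- embryos, and Prl3c1 lay under the dim limit on all arrays. The part of decidual RNA in the Gatm and Dcn values was not tested.

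**Figure D5:**
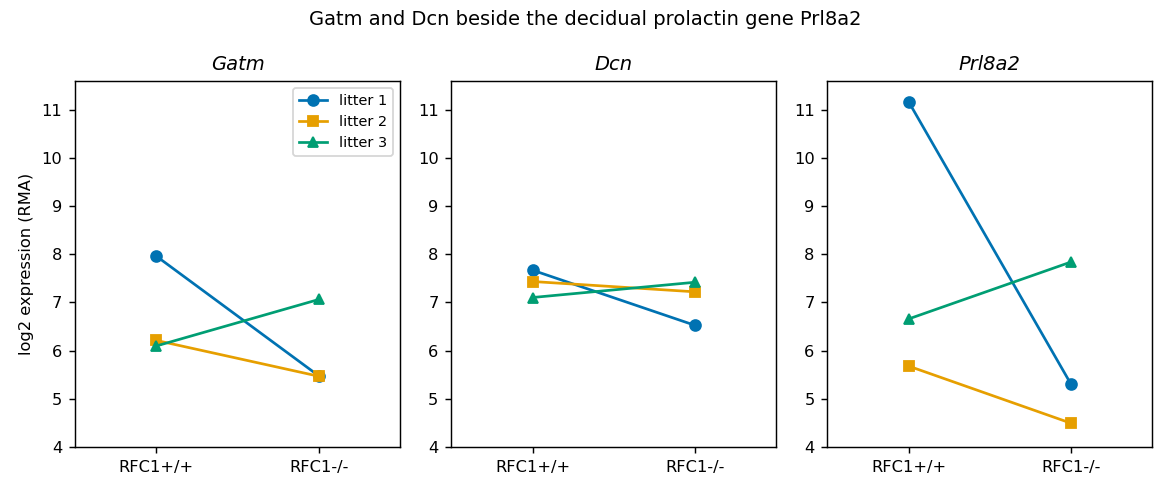
Log2 level (y axis) of Gatm, Dcn and the decidual marker Prl8a2 in each embryo, with littermates joined by a line. The RFC1+/+ embryo of litter 1 is the highest of the 6 arrays for all 3 genes, at 7.96, 7.67 and 11.17.

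Genes outside the member list give the wider setting. Of 37 further genes with imprinted expression, 32 were measured and 5 passed (15.6%, against 5.32% of all genes), with a median log2 difference of 0.02. Without the litter block 2 passed, where 6.35% of all genes did. Tfpi2, a serine protease inhibitor of the placenta, rose 2.46-fold (adjusted p = 0.0235) from a level under the dim limit. Sfmbt2, a polycomb-group protein needed in extraembryonic tissue, rose 2.02-fold (adjusted p = 0.0367), Airn, the noncoding RNA that overlaps Igf2r and silences it on the paternal copy, rose 1.53-fold (adjusted p = 0.0282), and Ddc, dopa decarboxylase, rose 1.49-fold (adjusted p = 0.0489), a call that was kept in 3 of 11 alternatives, with log2 differences from 0.26 to 0.72. Dlx5, a homeobox gene whose imprinting is disputed, fell by 0.50 on the log2 scale (adjusted p = 0.0352) and was named after its value was seen. All 5 lost the call without litter 1, where 0 of 32 passed and the share of all genes that passed was 1.95%. Their log2 differences there were 1.21 for Tfpi2, 0.88 for Sfmbt2, 0.66 for Airn, 0.51 for Ddc and -0.51 for Dlx5. Among 12 genes that set or keep imprints, such as DNA methyltransferases and their cofactors, 0 passed in limma and 3 had an unadjusted p under 0.05. They were Dnmt1, which copies methylation (-0.29, adjusted p = 0.186), Uhrf1, which brings Dnmt1 to replicated DNA (-0.50, adjusted p = 0.0799), and Dppa3, which guards methylation in the early embryo (0.50, adjusted p = 0.0591), picked after their values were seen. With the intensity trend 1 of the 12 passed, Uhrf1, and after another quantile normalization 1, Dppa3.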

How the data were processed

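Affymetrix mouse arrays were hybridized with RNA from 6 embryos of embryonic day 9.5, labelled in 2 cycles of amplification. The authors deposited log2 expression values of 45101 probe sets, made with RMA (background correction, quantile normalization across arrays, median polish); the software versions were not stated. Quantile normalization gives every array the same distribution of probe signals, so a shift common to all genes could not be seen. Array medians lay between 5.43 and 5.49. Arrays have no read depth, and their number limits the precision.

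Probe sets with 1 symbol in the platform annotation (34958; 932 had several and 9211 none) were used, each gene on the probe set with the highest mean, which left 18194 genes. The symbols of all 40 measured members were those of the RefSeq table. RFC1-/- and RFC1+/+ embryos were compared in limma 3.58.1 (R 4.3.3) with litter as a block and Benjamini-Hochberg adjustment over all genes, and again over all probe sets. Pairing comes from the labels and methods, which give littermates. Residuals of littermates correlated at 0.10, -0.05 and -0.15, and those of RFC1+/+ and RFC1-/- embryos from different litters at -0.12 to 0.16. The residuals thus do not show the pairing. The fit was tested on simulated data. All measured members were named, with values per array for those past the threshold and their cluster neighbours, and also for members that a result turned on; of the other lists up to 4 past the threshold were to be named, and marker lists are given by counts. The members, their parental classes, the lists and the tests were chosen with earlier results of these data known; the parental classes are from textbook knowledge. Alternatives were no block, the variation filter of the methods (1.5-fold from the median on at least 1 array), dim probe sets left out, an intensity trend, a random-variance paired test, another quantile normalization, centring on array medians, averaging the probe sets of a gene and each litter left out. Python 3.11.15 with pandas 2.3.3, numpy 2.4.6 and matplotlib 3.10.9 made counts and plots.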

Additional observations from a re-analysis of the deposited data

How the results depend on the processing

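The number of members past the threshold was 2, both higher. It was 3 without the replicate block, where Igf2 was added, 3 with the intensity trend and 3 with the mean of probe sets. It was 1 with the variation filter, which left 16 of the 40 members testable, and 2 to 3 with a litter left out. Of all genes, 5.32% passed in the main fit, 19.4% with the variation filter, and 1.95%, 4.14% and 6.59% without litters 1, 2 and 3. Among paternally expressed members the count of 1 became 2 without the block, 2 with the intensity trend, 0 with the variation filter and 1 to 2 with a litter left out; among maternally expressed members 1 became 2 with the mean of probe sets and 1 to 2 with a litter left out. The count of 8 member probe sets was 1 with the variation filter and 1 to 8 with a litter left out, lowest without litter 1; over all probe sets 2.75% passed, against 16.5% with the variation filter, 0.286% without litter 1, 1.86% without litter 2 and 3.51% without litter 3. For the other imprinted genes 5 became 2 without the block, 2 with the variation filter, 3 with the mean of probe sets and 0 to 3 with a litter left out. For the genes that keep imprints 0 became 1 with the intensity trend, 1 with another quantile normalization and 0 with a litter left out.

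Of 410 recomputed differences of members, 389 kept their direction and their side of the threshold, 6 newly passed, 1 no longer passed (Magel2 without litter 1) and 14, in 11 members, changed sign. With the variation filter, which can change the probe set used, these were Kcnq1ot1 (-0.32), Sgce (-0.016), Gnas (-0.27) and Inpp5f (-0.19), and with the mean of probe sets Ube3a (-0.043) and Gnas (-0.066). With a litter left out, differences ranged from -1.62 to 0.11 for Gatm and from -0.68 to 0.051 for Dcn, both reversed without litter 1. They ranged from -0.031 to 0.20 for Osbpl5, -0.10 to 0.59 for Rian, -0.043 to 0.19 for Ube3a and -0.11 to 0.15 for Gnas, reversed without litter 2, and from -0.078 to 0.22 for Slc22a18 and -0.23 to 0.15 for Mkrn3, reversed without litter 3. The cause was not tested. With 3 pairs, small differences are not resolved, and 6 of 40 members were dim.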
